A study of Mus musculus with 12 samples.

Results

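The 45 genes described here drive or carry out cell division, from cyclins and replication factors to mitotic kinases and kinesins. They were chosen by name, and every array probe that the platform annotation gives to them, under an older or the current symbol, was read on all 12 arrays. For 44 of the 45 the annotation names a probe, 89 probes in all, and Ccnb1 (cyclin B1) has none under this annotation. Of these, 34 genes had at least 1 probe brighter than the negative controls on at least 2 of 12 arrays. These kept probes were 60 of the 18454 kept among 45135 probes, which measured 10341 named genes. The brightest kept probe stood for its gene, and all levels below are log2 intensities after background correction and quantile normalization. Levels of different genes are read from different probes and are not set against each other.

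The arrays held 5 recurrent tumors, the 5 primary tumors of the same animals and 2 samples of cultured SCC-7 cells. SCC-7 is a murine squamous cell carcinoma line that was grown in MEM with fetal calf serum and then injected into the floor of the mouth of BALB/c-nu mice, an immunodeficient strain that lacks mature T cells but keeps macrophages and other immune cells. Primary tumors were removed by microsurgery, and recurrences are the tumors that regrew at the site of that animal's removed primary tumor. All tumors come from this single line, tumor pieces hold host tissue beside the carcinoma cells, and no source states separate cultures for the 2 SCC-7 samples, so p-values against them may measure technical spread.

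Cells enter division when D and E type cyclins with their kinases release E2F transcription factors from pocket proteins of the retinoblastoma family. E2F targets include the Mcm helicase, replication fork factors and the enzymes that make deoxynucleotides. In G2 and mitosis, a later wave of genes for kinases, kinesins and centromere proteins is transcribed under B-Myb and FoxM1, in resting cells held down by the DREAM complex at promoter elements called the cell cycle homology region. As a group these transcripts are a common measure of proliferation in tumor tissue.

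Detected probes ranged from 15406 to 16758 on the recurrent tumor arrays, from 15043 to 17083 on the primary tumor arrays and from 13711 to 13868 on the SCC-7 arrays. Of the 34 measured members, 32 to 34 were detected on each recurrence, 31 to 34 on each primary tumor and 29 to 30 on the SCC-7 arrays. Of 9 squamous markers, Krt14, Krt8, Krt18, Krt17 and Trp63 were detected in SCC-7 cells, Krt5 and Cdh1 were not, and Krt6a and Epcam had no kept probe. Pair 1 stood apart from the other pairs. Some 162 kept probes were at least 2-fold apart in the same direction in 3 or more of the other 4 pairs, and 77.8% of these had the opposite sign in pair 1. For each of the other pairs, judged in the same manner, that share was 29.5% to 36.7%. The deviations of the 2 tumors of pair 1 from their group means correlated at -0.37 over all kept probes. Whether the 2 labels of pair 1 were exchanged cannot be told from these data. Host tissue differed in pair 1 as well. The median log2 ratio of recurrent over primary tumor over 9 salivary gland markers was -8.72 in pair 1. In pairs 2 to 5 it was 1.66, 0.47, 1.55 and 3.02. The part of host tissue in the opposite signs was not tested. In the paired comparison below, the members' median, their count above 0, Cenpa, Mybl2, Foxm1 and Plk1 are also given without pair 1. Most other paired values below include it.

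The promoters of 4 members, taken from RefSeq on build GRCm38.p6, show the elements of both waves of transcription. Each runs from 250 bases before to 50 after the start of the gene. Capitals mark the motifs searched on either strand. These were TTTGAA for the cell cycle homology region, CCAAT for the box of that name, which the factor NF-Y binds, and for E2F the letters TTCCCGC as well as TTGGCGC. On the other strand the box reads ATTGG and the homology region TTCAAA. Mcm5, a subunit of the replicative helicase, lies at chr8:75109259-75109558, plus strand. Kif11, the kinesin that pushes spindle poles apart, is at chr19:37376132-37376431, plus strand. The topoisomerase gene Top2a is at chr11:99024140-99024439, minus strand, and Cdca8, which encodes the chromosomal passenger protein borealin, at chr4:124936868-124937167, minus strand. In the Cdca8 promoter a cell cycle homology region and a reversed CCAAT box overlap.
Mcm5: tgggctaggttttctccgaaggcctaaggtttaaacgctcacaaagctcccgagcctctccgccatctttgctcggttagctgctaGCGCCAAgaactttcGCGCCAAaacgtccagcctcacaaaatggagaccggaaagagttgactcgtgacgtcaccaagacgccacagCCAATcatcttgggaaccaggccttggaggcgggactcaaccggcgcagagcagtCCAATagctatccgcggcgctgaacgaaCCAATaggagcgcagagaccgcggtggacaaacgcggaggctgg
Kif11: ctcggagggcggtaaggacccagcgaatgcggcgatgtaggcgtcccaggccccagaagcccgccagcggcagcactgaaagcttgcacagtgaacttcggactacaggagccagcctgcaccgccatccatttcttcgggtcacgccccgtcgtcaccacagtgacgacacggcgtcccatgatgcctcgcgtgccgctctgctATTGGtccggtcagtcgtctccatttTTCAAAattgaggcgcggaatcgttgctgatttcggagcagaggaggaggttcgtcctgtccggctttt
Top2a: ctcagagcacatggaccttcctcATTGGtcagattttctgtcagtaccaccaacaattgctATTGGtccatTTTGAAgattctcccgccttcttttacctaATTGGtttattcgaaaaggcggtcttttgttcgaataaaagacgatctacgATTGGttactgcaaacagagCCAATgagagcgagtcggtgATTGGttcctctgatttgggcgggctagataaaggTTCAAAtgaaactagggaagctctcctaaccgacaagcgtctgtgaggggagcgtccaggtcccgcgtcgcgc
Cdca8: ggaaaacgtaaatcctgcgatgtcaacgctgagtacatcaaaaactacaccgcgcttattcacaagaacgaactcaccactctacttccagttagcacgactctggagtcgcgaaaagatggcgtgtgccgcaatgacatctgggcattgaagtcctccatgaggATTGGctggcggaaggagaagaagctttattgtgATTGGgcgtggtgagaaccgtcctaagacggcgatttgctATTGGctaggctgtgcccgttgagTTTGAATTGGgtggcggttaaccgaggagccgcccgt

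Promoters were given for 36 of the 45 members. TTTGAA was found in 47.2% of them and in 18.1% of all 27025 promoters, and CCAAT in 75.0% and 37.9%. Either E2F motif was found in 25% of member promoters, against 6.93% of all. TTTGAA and the E2F motifs fell mostly on different members, though the Cdk1 promoter held both. TTTGAA was in 16 of 22 promoters of mitotic and checkpoint genes but in 1 of 11 promoters of replication and deoxynucleotide genes, that of Mcm2, while an E2F motif was in 3 of the 22 and 6 of the 11. CCAAT did not separate them in this manner, being in 19 of the 22 and 8 of the 11. These are letter matches and no test was run on them.

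Most members were brighter in the tumors than in SCC-7 cells. In recurrent tumors, 21 of the 34 measured members were called higher than in SCC-7 cells (limma, adjusted p under 0.05 and at least 2-fold), where 6.85% of all kept probes were called higher. In primary tumors, 9 of 34 were called higher, against a background of 6.66%. No member was called lower in either comparison, where 5.05% of kept probes were called lower in recurrent and 5.73% in primary tumors. The median log2 fold change of the members was 1.58 in recurrent and 1.25 in primary tumors, and that of all kept probes was -0.11 and -0.15. With the 4 members that were not detected in SCC-7 cells set to their lower bounds, the members' medians were 1.55 and 1.23. The 9 genes called in primary tumors, Mcm3, Mcm4, Mcm5, Rrm1, Tk1, Bub1b, Cdca8, Kif11 and Top2a, were also called in recurrent tumors. Both comparisons share the 2 SCC-7 arrays, so they are not independent. In bulk samples such as these, fewer cells of a type and less RNA per cell cannot be told apart.

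For 20 of the 34 members all 10 tumors lay above both SCC-7 arrays, which held for 15% of kept probes, and for 0 members all tumors lay below, which held for 24.2%. The SCC-7 arrays rest on 2 samples, and leaving out either of them left 4 or 6 members called in recurrent and 1 or 3 in primary tumors. Median scaling of the arrays in place of quantile normalization shifted the median of all probes to 0.13 in recurrent and 0.08 in primary tumors. It then called 16 and 10 members higher and 0 lower. Of the 18454 kept probes, it called 1490 and 1362 higher and 311 and 367 lower.

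**Figure D1:**
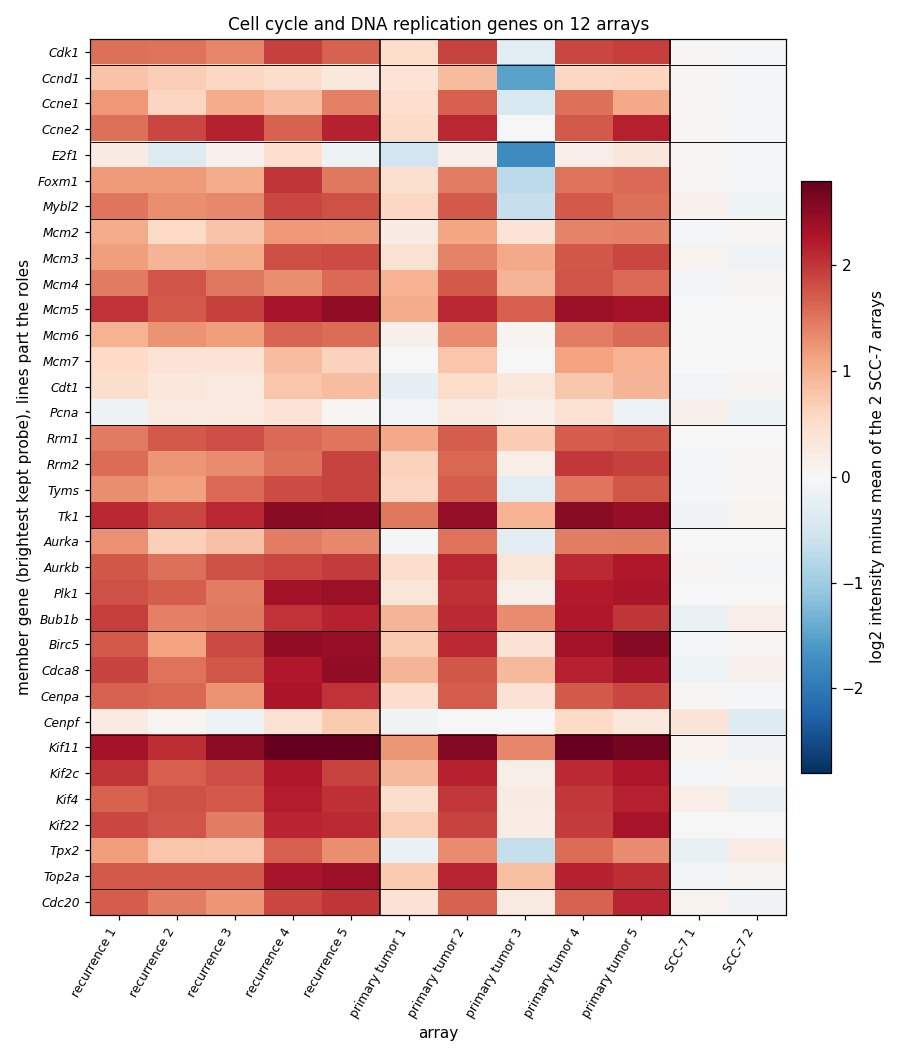
Heat map of the 34 measured members (rows, grouped by role) on 12 arrays (columns: recurrences, primary tumors, SCC-7 cells); color is the log2 intensity minus the mean of the 2 SCC-7 arrays. Primary tumors 1 and 3 are paler than the other 8 tumors in most rows, and E2f1, Pcna and Cenpf are near the SCC-7 level in most tumors.

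Among the factors that license origins and run the replication fork, 4 of 8 measured members were called higher in recurrent tumors and 3 of 8 in primary tumors. Mcm5 had levels of 11.41, 11.10, 11.30, 11.68 and 11.86 in recurrences 1 to 5, 10.43, 11.49, 11.05, 11.79 and 11.71 in primary tumors 1 to 5, and 9.38 and 9.38 on the 2 SCC-7 arrays. Every tumor was above both SCC-7 arrays, with primary tumor 1 the lowest. Its log2 fold change was 2.09 ± 0.34 in recurrent tumors (SE, limma's adjusted p = 0.00178) and 1.91 ± 0.34 in primary tumors (adjusted p = 0.00305), or 4.25-fold and 3.76-fold. Mcm5 was called in all 17 and all 18 settings that kept the 2-fold cutoff for those comparisons, the reported one included. In primary tumors it missed a 4-fold cutoff. Of the 21 members called in recurrent tumors, the others were called in 7 or more of up to 17 settings, the fewest being Tyms (7), Mcm6 (8), Birc5 (8), Plk1 (9) and Ccne2 (9). The 9 called in primary tumors were called in 11 to 18 of up to 18 settings, again with the 2-fold cutoff kept. The helicase subunits Mcm4 and Mcm3 were called too. For Mcm4 the log2 fold change was 1.51 ± 0.25 in recurrent tumors (SE, limma's adjusted p = 0.00201) and 1.40 ± 0.25 in primary tumors (adjusted p = 0.00324). That of Mcm3 was 1.36 ± 0.38 in recurrent tumors (SE, limma's adjusted p = 0.0295) and 1.30 ± 0.38 in primary tumors (adjusted p = 0.0355). Mcm6 was called in recurrent tumors only, at 1.32 ± 0.41 (adjusted p = 0.0446), and had 0.91 ± 0.41 in primary tumors (adjusted p = 0.137).

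The other replication members did not pass. Mcm2 had all tumors above both SCC-7 arrays, with a log2 fold change of 0.96 ± 0.34 in recurrent tumors (SE, limma's adjusted p = 0.0689) and 0.90 ± 0.34 in primary tumors (adjusted p = 0.0816). Mcm7 had 0.57 in both tumor groups, and Cdt1, which loads the helicase, had 0.54 in recurrent and 0.45 in primary tumors. Pcna, the sliding clamp, was detected in 2 of 5 recurrent tumors, 2 of 5 primary tumors and neither SCC-7 array, so that no fold is given for it. Gmnn (geminin, the inhibitor of Cdt1) had no kept probe.

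All 4 enzymes of deoxynucleotide synthesis were called higher in recurrent tumors, and Rrm1 and Tk1 also in primary tumors. Thymidine kinase Tk1 measured 10.04, 9.80, 10.05, 10.46 and 10.43 in recurrences 1 to 5, 9.42, 10.40, 8.91, 10.46 and 10.36 in primary tumors 1 to 5, and 7.83 and 8.03 on the 2 SCC-7 arrays. The tumors and the SCC-7 arrays did not overlap, and primary tumor 3 was the lowest tumor. Its log2 fold change was 2.23 ± 0.40 in recurrent tumors (SE, limma's adjusted p = 0.00305) and 1.98 ± 0.40 in primary tumors (adjusted p = 0.00606), which is 4.68-fold and 3.94-fold. Rrm1, the large subunit of ribonucleotide reductase, had a log2 fold change of 1.61 ± 0.28 in recurrent tumors (SE, limma's adjusted p = 0.0024) and 1.38 ± 0.28 in primary tumors (adjusted p = 0.00591). Its partner subunit Rrm2 had 1.51 ± 0.44 in recurrent tumors (SE, limma's adjusted p = 0.0344) and 1.26 ± 0.44 in primary tumors (adjusted p = 0.0654). Thymidylate synthase Tyms had 1.55 ± 0.48 in recurrent tumors (SE, limma's adjusted p = 0.0454) and 1.05 ± 0.48 in primary tumors (adjusted p = 0.147), and primary tumor 3 was at 8.54, below both SCC-7 arrays at 8.82 and 8.87.

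Of the mitotic and checkpoint kinases, 3 of 4 measured members were called in recurrent tumors and 1 of 4 in primary tumors. Bub1b, the BubR1 kinase of the spindle checkpoint, had levels of 8.86, 8.35, 8.42, 8.96 and 9.08 in recurrences 1 to 5, 7.88, 9.01, 8.26, 9.18 and 8.93 in primary tumors 1 to 5, and 6.74 and 7.13 on the 2 SCC-7 arrays. All tumors lay above both SCC-7 arrays. The log2 fold change was 1.80 ± 0.35 in recurrent tumors (SE, limma's adjusted p = 0.00523) and 1.72 ± 0.35 in primary tumors (adjusted p = 0.00665). Plk1, the polo kinase that drives mitotic entry, measured 10.11, 10.04, 9.76, 10.68 and 10.75 in recurrences 1 to 5, 8.67, 10.37, 8.51, 10.56 and 10.61 in primary tumors 1 to 5, and 8.32 and 8.35 on the 2 SCC-7 arrays. All tumors lay above both SCC-7 arrays, primary tumors 1 and 3 only narrowly and the other 8 far above. Its log2 fold change was 1.94 ± 0.58 in recurrent tumors (SE, limma's adjusted p = 0.0384) and 1.41 ± 0.58 in primary tumors (adjusted p = 0.107). Aurkb, the kinase of the chromosomal passenger complex, had 1.78 ± 0.49 in recurrent tumors (SE, limma's adjusted p = 0.0279) and 1.45 ± 0.49 in primary tumors (adjusted p = 0.0598). Aurka, which acts at spindle poles, did not pass in either group, with 1.11 in recurrent and 0.80 in primary tumors. Bub1, Ttk, Nek2 and Chek1 had no kept probe.

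Chromosomal passenger and centromere genes gave 3 of 4 calls in recurrent and 1 of 4 in primary tumors. Cdca8 had 9.98, 9.62, 9.83, 10.34 and 10.57 in recurrences 1 to 5, 9.05, 9.84, 8.99, 10.26 and 10.42 in primary tumors 1 to 5, and 7.97 and 8.22 on the 2 SCC-7 arrays. It was above both SCC-7 arrays in all 10 tumors, least in primary tumors 1 and 3. The log2 fold change was 1.97 ± 0.40 in recurrent tumors (SE, limma's adjusted p = 0.00663) and 1.62 ± 0.40 in primary tumors (adjusted p = 0.0186). Birc5 (survivin, which anchors the passenger complex) had 1.93 ± 0.57 in recurrent tumors (SE, limma's adjusted p = 0.038) and 1.62 ± 0.57 in primary tumors (adjusted p = 0.0693). Cenpa, the histone variant that marks centromeres, had 1.76 ± 0.42 in recurrent tumors (SE, limma's adjusted p = 0.0154) and 1.24 ± 0.42 in primary tumors (adjusted p = 0.0639). Cenpf was detected in 3 recurrent tumors, 1 primary tumor and neither SCC-7 array and gets no fold. Cenpe, a centromere kinesin, had no kept probe.

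The kinesins and Top2a gave 5 of 6 calls in recurrent and 2 of 6 in primary tumors. Kif11 measured 7.50, 7.25, 7.68, 8.05 and 7.97 in recurrences 1 to 5, 6.41, 7.74, 6.54, 7.93 and 7.84 in primary tumors 1 to 5, and 5.28 and 5.06 on the 2 SCC-7 arrays. It was detected in every tumor and on neither SCC-7 array, so that its change is a bound of at least 3.99-fold in recurrent tumors (adjusted p = 0.00225 in limma) and at least 3.03-fold in primary tumors (adjusted p = 0.00613). Such a bound sets the tumors' mean against the lowest level that counts as detected. A call or adjusted p given beside a bound belongs to the fitted change, which uses the SCC-7 values below detection. A bound of a called gene can therefore lie under 2-fold. Top2a, which untangles sister chromatids, had 9.72, 9.73, 9.73, 10.31 and 10.40 in recurrences 1 to 5, 8.74, 10.15, 8.86, 10.16 and 10.09 in primary tumors 1 to 5, and 7.94 and 8.09 on the 2 SCC-7 arrays. Every tumor was above both SCC-7 arrays, and primary tumors 1 and 3 were the lowest. Its log2 fold change was 1.97 ± 0.42 in recurrent tumors (SE, limma's adjusted p = 0.00849) and 1.59 ± 0.42 in primary tumors (adjusted p = 0.024). Kif2c (MCAK, which takes microtubules apart at centromeres) had 1.92 ± 0.49 in recurrent tumors and 1.51 ± 0.49 in primary tumors. The chromokinesins Kif4 and Kif22 had 1.88 and 1.86 in recurrent tumors, and 1.37 and 1.41 in primary tumors. These 3 genes were called in recurrent tumors at adjusted p-values of 0.0198 to 0.023, and not in primary tumors at 0.0522 to 0.074. Tpx2, which activates Aurka on the spindle, was called in neither, with 1.13 and 0.67. Kif20a had no kept probe.

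Cdc20, the activator of the anaphase-promoting complex, was called in recurrent tumors at 1.65 ± 0.46 (adjusted p = 0.0295) and had 1.22 ± 0.46 in primary tumors (adjusted p = 0.0845). Ube2c, the ubiquitin-conjugating enzyme of that complex, had no kept probe. The mitotic cyclins Ccna2 and Ccnb2 also lay at the level of the negative controls on all 12 arrays, although their kinase Cdk1 was detected on every array. The 10 genes without a kept probe had mean levels of 4.88 or less on the log2 scale at each of their probes. Their probes gave no reading in either direction.

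**Figure D2:**
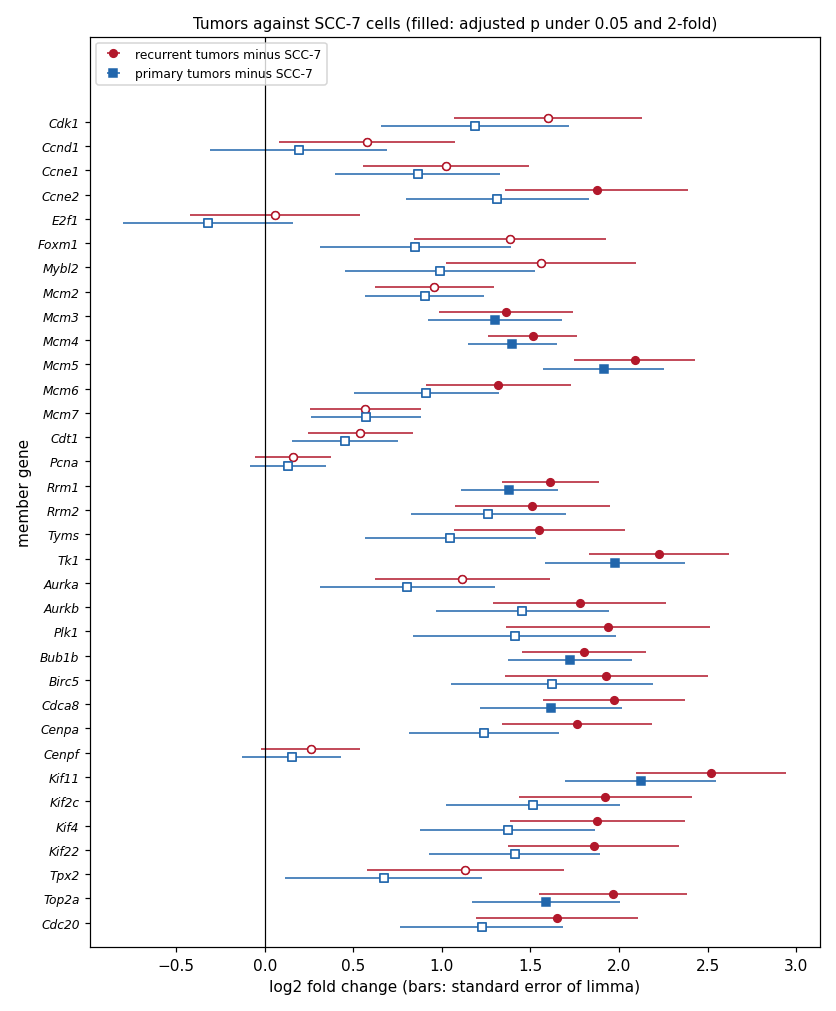
Log2 fold change of each of the 34 members (rows) in recurrent tumors (circles) and primary tumors (squares) against SCC-7 cells, with the standard error as bars; filled symbols passed an adjusted p under 0.05 and 2-fold. The 21 filled circles and 9 filled squares all lie to the right of 0, and the E2f1 square is the only symbol on the left (symbols of Kif11, Ccne2, Pcna and Cenpf, not detected in SCC-7 cells, are fitted values).

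Of the regulators that act upstream of these genes, few passed the test. Over all kept probes, 6.85% were called higher in recurrent and 6.66% in primary tumors. Few calls among so few genes are therefore no result about them. Cdk1, the kinase of mitotic entry, measured 10.14, 10.13, 9.97, 10.52 and 10.25 in recurrences 1 to 5, 9.12, 10.50, 8.31, 10.48 and 10.55 in primary tumors 1 to 5, and 8.64 and 8.57 on the 2 SCC-7 arrays. It was below both SCC-7 arrays in primary tumor 3 and above them in the other 9 tumors. Its log2 fold change was 1.60 ± 0.53 in recurrent tumors (SE, limma's adjusted p = 0.0565) and 1.19 ± 0.53 in primary tumors (adjusted p = 0.135). Of the G1 and S phase cyclins, 1 of 3 was called, Ccne2 (cyclin E2) in recurrent tumors. It was detected in 5 of 5 recurrent tumors, 3 of 5 primary tumors and neither SCC-7 array. Its bound was at least 1.64-fold in recurrent tumors, where it was called on the fitted 3.67-fold change (limma's adjusted p = 0.0284). In primary tumors the same ratio was 1.11-fold (adjusted p = 0.0974 for the fitted change). That is no strict bound, as it was not detected in primary tumors 1 and 3. Ccne1 had 1.03 and 0.86 and was called in neither.

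Ccnd1 (cyclin D1), the G1 cyclin that answers to growth factors, had levels of 14.57, 14.45, 14.35, 14.26 and 14.06 in recurrences 1 to 5, 14.15, 14.65, 12.27, 14.35 and 14.36 in primary tumors 1 to 5, and 13.80 and 13.73 on the 2 SCC-7 arrays. Recurrences lay above both SCC-7 arrays, while primary tumor 3 lay well below them. The log2 fold change was 0.58 ± 0.50 in recurrent tumors (SE, limma's adjusted p = 0.449) and 0.19 ± 0.50 in primary tumors (adjusted p = 0.804). None of the 3 transcription factors was called. E2f1 measured 10.90, 10.28, 10.78, 11.13 and 10.52 in recurrences 1 to 5, 10.13, 10.85, 8.89, 10.86 and 10.99 in primary tumors 1 to 5, and 10.72 and 10.61 on the 2 SCC-7 arrays. The 3 groups overlapped, and primary tumor 3 was again the lowest. Its log2 fold change was 0.06 ± 0.48 in recurrent tumors (SE, limma's adjusted p = 0.943) and -0.32 ± 0.48 in primary tumors (adjusted p = 0.655). Foxm1 had 1.38 in recurrent and 0.85 in primary tumors, and Mybl2 (B-Myb) 1.56 and 0.99, with adjusted p-values of 0.0651 to 0.284.

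**Figure D3:**
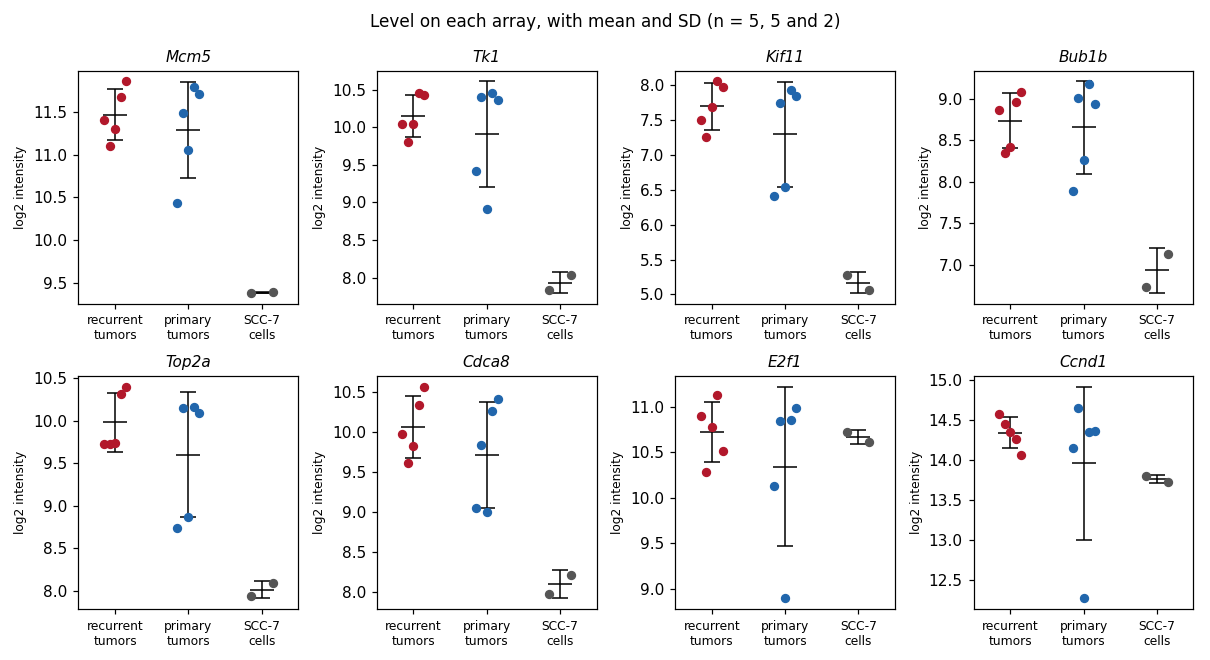
Log2 intensity of 8 members on each array (points), with the mean and SD of recurrent tumors (n = 5), primary tumors (n = 5) and SCC-7 cells (n = 2). In the first 6 genes all tumors lie above both SCC-7 arrays and 2 primary tumors lie low, while in E2f1 all 3 groups overlap and in Ccnd1 the primary tumors overlap both other groups.

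Of the members, 17 had more than 1 kept probe, and these gave 26 further probes. Their log2 fold change was above 0 at 26 of 26 in recurrent tumors and 24 of 26 in primary tumors. Of these, 9 and 4 were called higher and 0 lower. A second, dimmer Top2a probe was called in both, at least 2.3-fold higher in recurrent tumors (adjusted p = 0.0034) and at least 1.66-fold higher in primary tumors (adjusted p = 0.0119), as it was detected on neither SCC-7 array.

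Other genes of the same pathways gave the following counts against SCC-7 cells, where 6.85% of all kept probes were called higher in recurrent and 6.66% in primary tumors. Of 28 measured replication initiation factors and polymerases, 9 were called higher in recurrent and 8 in primary tumors, and 0 lower. Those with the largest log2 fold change were DNA ligase Lig1 (1.97 in recurrent and 1.84 in primary tumors), the initiation factor Mcm10 (1.86 and 1.67), Gins1 of the helicase complex (1.72 in recurrent tumors), Cdc7, the kinase that fires origins (1.43 in recurrent tumors), the flap endonuclease Fen1 (1.67 in primary tumors) and the clamp loader Rfc2 (1.39 in primary tumors). Of 19 measured kinetochore and spindle checkpoint genes, 8 were called higher in recurrent and 3 in primary tumors. Spc25 and Ndc80 belong to the complex that grips microtubules. Spc25 was not detected in SCC-7 cells and was at least 2.53-fold higher in recurrent (adjusted p = 0.00331) and at least 1.71-fold higher in primary tumors (adjusted p = 0.0144). In recurrent tumors the log2 fold change was 2.27 for Ndc80, 1.98 for the checkpoint gene Mad2l1 and 1.96 for the centromere cohesion protector Sgo2a. In primary tumors Mad2l1 was called at 1.39, as was Mis18a, which helps to load Cenpa, at 1.39. Of 13 cohesin and condensin genes, 7 and 3 were called higher, among them the separase Espl1 (1.76 in recurrent and 1.59 in primary tumors), the condensin subunit Ncaph (1.71 and 1.40) and, in primary tumors, the condensin subunit Ncapd2 (1.62). The condensin subunits Smc4 and Smc2 were not detected in SCC-7 cells and were at least 1.61-fold (adjusted p = 0.0269) and 1.47-fold (adjusted p = 0.0194) higher in recurrent tumors. No gene of these 3 lists was called lower.

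Few genes passed in the lists of other regulators, which hold genes that restrain division as well as genes that promote it. Over all kept probes, 6.85% were called higher and 5.05% lower in recurrent tumors, and 6.66% and 5.73% in primary tumors. At these shares, lists of 7 to 13 genes would hold few calls or none, so the low counts are no result about these genes. Of 7 CDK inhibitors, 0 were called higher or lower against SCC-7 cells. Cdkn1a (p21), a p53 target, had a log2 fold change of -0.32 in recurrent tumors and -1.0 in primary tumors, Cdkn2c 0.39 and -0.08, and Cdkn2d -0.03 and -0.0041. Cdkn1c (p57) was detected in 5 of 5 recurrent tumors, 4 of 5 primary tumors and neither SCC-7 array. Its bound was at least 2.15-fold in recurrent tumors (limma's adjusted p = 0.0608). The same ratio in primary tumors, not a strict bound there, was 2.05-fold (adjusted p = 0.067). Cdkn1b (p27) was detected in 1 recurrent tumor, 0 primary tumors and 1 SCC-7 array, and Cdkn2a and Cdkn2b in 0 SCC-7 arrays and at most 3 of 5 tumors of a group, so that no fold is given for these 3. Among 13 other cyclins, CDKs and CDC25 phosphatases 0 were called. Of 11 pocket protein, E2F and DREAM genes, the pocket protein Rbl1 (p107) was called in recurrent tumors, at 1.01 ± 0.27, and 0 in primary tumors. Of 7 antiproliferative and quiescence genes, Gas6, a secreted ligand of TAM receptors, was called in both, at 4.99 ± 0.31 and 4.68 ± 0.31.

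Host cells are part of the tumor samples. All 7 measured macrophage markers and 7 of 8 endothelial markers were called higher than in SCC-7 cells in both tumor groups, as were 3 of 7 fibroblast markers. The mean level of the macrophage list ran from 11.51 to 11.86 in recurrent tumors, from 10.02 to 11.60 in primary tumors and from 7.0 to 7.07 in SCC-7 cells. Of the endothelial markers 7, and of the macrophage markers only Adgre1, were not detected in SCC-7 cells. The part of host cells in the levels of the members was not tested.

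Recurrent and primary tumors were then compared within animals. At an adjusted p under 0.05, 0 members and 0% of kept probes were called by limma with the animal as block, where no adjusted p was below 0.933. At an unadjusted p under 0.05, 1 member was higher and 0 lower by its brightest probe, where 2.47% of all kept probes were higher and 0.791% lower. The methods' t-test at p under 0.05 gave 292 probes higher and 131 lower, 0 of them members' probes that stood for a gene, and 0 probes after Benjamini-Hochberg adjustment. With 5 pairs, a p that misses the threshold does not show that the 2 groups were alike.

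The 1 member was Cenpa. Its levels were 12.69, 12.65, 12.31, 13.33 and 13.07 in recurrences 1 to 5 and 11.54, 12.74, 11.46, 12.77 and 12.92 in primary tumors 1 to 5. It was higher in the recurrence of 4 of 5 pairs, with overlap of the 2 groups. The log2 fold change was 0.53 ± 0.22 (SE; unadjusted p = 0.0476, adjusted p = 0.933, limma), 0.37 without pair 1 and 0.44 without pair 3. Mybl2 had 0.57 ± 0.35, with 0.48 without pair 1 and 0.22 without pair 3. Foxm1 had 0.53 ± 0.31, with 0.48 without pair 1 and 0.22 without pair 3, and Plk1 had 0.53 ± 0.30, with 0.30 without pair 1 and 0.34 without pair 3. The 8 origin licensing and replication fork members had a median of 0.07, from 0.00 ± 0.20 for Mcm7 to 0.41 ± 0.22 for Mcm6, while the second Mcm7 probe had 0.47 ± 0.29. Deoxynucleotide enzymes ran from 0.23 ± 0.23 for Rrm1 to 0.50 ± 0.34 for Tyms. The 95% interval for Mcm7 ran from -0.49 to 0.48, and that for Plk1 from -0.18 to 1.24.

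The log2 fold change was above 0 for 33 of 34 members, all but Mcm7, with a median of 0.37 against 0.03 over all kept probes. Of the 18454 kept probes, 10002 were above 0. The median log2 ratio of recurrent over primary tumor over the 34 members was 0.93 in pair 1, -0.38 in pair 2, 1.14 in pair 3, 0.05 in pair 4 and -0.03 in pair 5. Over all kept probes these medians were 0.21, 0.02, 0.12, 0.0025 and -0.04 in pairs 1 to 5. In pairs 1 and 3, 33 and 31 members were higher in the recurrence, but in pair 2 only 3 were. Of the 18454 kept probes, 12038 were higher in the recurrence of pair 1, 10530 of pair 3 and 9499 of pair 2. Without pair 1, 28 members were above 0 and the median was 0.21, and without pair 3, 30 were and the median was 0.11. Without pairs 1 and 3, left out after their values had been seen, 7 of 34 were above 0 and the median was -0.12. At least 2-fold in 3 of 5 pairs held for 0 members, for 1% of probes in the higher and for 0.341% in the lower direction. By its brightest probe, no member was higher in all 5 pairs, as 4.22% of kept probes were, or lower in all 5, as 1.87% were. The 26 further probes of the members had a log2 fold change above 0 at 26 of 26, and 2 of them, both of Cdc20, were higher in the recurrence of all 5 pairs. These 2 had 0.89 ± 0.38 (unadjusted p = 0.0535, limma) and 0.67 ± 0.24 (unadjusted p = 0.0283), the 1 further probe under 0.05, both with an adjusted p of 0.933, against 0.43 ± 0.27 at the brightest Cdc20 probe. The 34 genes are read on the same tumors and are not independent of each other.

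**Figure D4:**
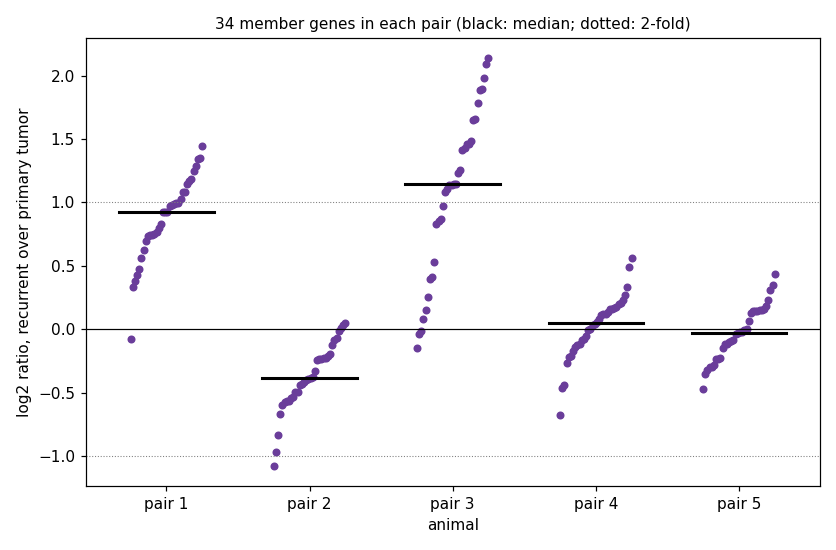
Log2 ratio of recurrent over primary tumor (vertical axis) for the 34 members (points) in each of the 5 animals (horizontal axis), with the median as a black line and 2-fold as dotted lines. The medians of pairs 1 and 3 are 0.93 and 1.14, and those of pairs 2, 4 and 5 lie between -0.38 and 0.05.

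As labelled, 2 low tumors stood among the primary tumors. The median level of the 34 members was 9.66, 9.49, 9.63, 9.95 and 9.92 in recurrences 1 to 5, and 8.79, 9.76, 8.41, 9.96 and 10.07 in primary tumors 1 to 5, against 7.95 and 8.06 on the SCC-7 arrays. Primary tumors 1 and 3 lay between the other tumors and SCC-7 cells. If the labels of pair 1 were exchanged, each group would hold 1 of these 2 low tumors. Of the 34 members, 25 had their lowest tumor value in primary tumor 3 and 7 in primary tumor 1. All 34 were below the median of the other 8 tumors in both. Over the 10 tumors the range of a member had a median of 1.85, from 0.59 for Pcna to 2.74 for Foxm1.

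Which members were lowest differed between the 2. In primary tumor 3 the difference from the median of the other 8 tumors was -2.27 for Mybl2, -2.19 for Foxm1, -2.09 for Ccnd1, -2.05 for Cdk1 and -1.96 for E2f1, and it was smaller for Mcm3 (-0.52), Mcm5 (-0.54) and Cdt1 (-0.33). In primary tumor 1 it was -0.21 for Ccnd1, -1.14 for Mcm3, -1.16 for Mcm5 and -0.89 for Cdt1. The lowest tumor was primary tumor 1 for Mcm2, Mcm3, Mcm5, Cdt1, Bub1b, Kif11 and Top2a. These are single tumors, and no test between them can be made.

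Several cell type marker lists were highest or lowest in the same 2 tumors. The mean level of the 5 measured lymphocyte markers was 11.06 in primary tumor 3 and 5.52 to 7.12 in the other 9 tumors. The 9 salivary gland markers averaged 13.82 in primary tumor 1, 12.32 in primary tumor 3 and 5.62 to 12.38 in the other 8 tumors. The macrophage list was lowest in primary tumor 3, at 10.02, and next in primary tumor 1, at 10.82. The endothelial list averaged 7.93 in primary tumor 3 and 6.93 to 7.26 in the other 9 tumors, and the 3 adipocyte markers averaged 7.29 in primary tumor 1 and 4.71 to 6.64 in the other 9. Squamous markers averaged 8.78 in primary tumor 1, above the 5.26 to 7.57 of the other 9 tumors. Most of them were detected in the injected SCC-7 line too, so this list does not mark host tissue alone. Recurrences 2 and 3, with salivary levels of 12.38 and 12.21, had member medians of 9.49 and 9.63. The part of these cell types in the low member levels was not tested.

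**Figure D5:**
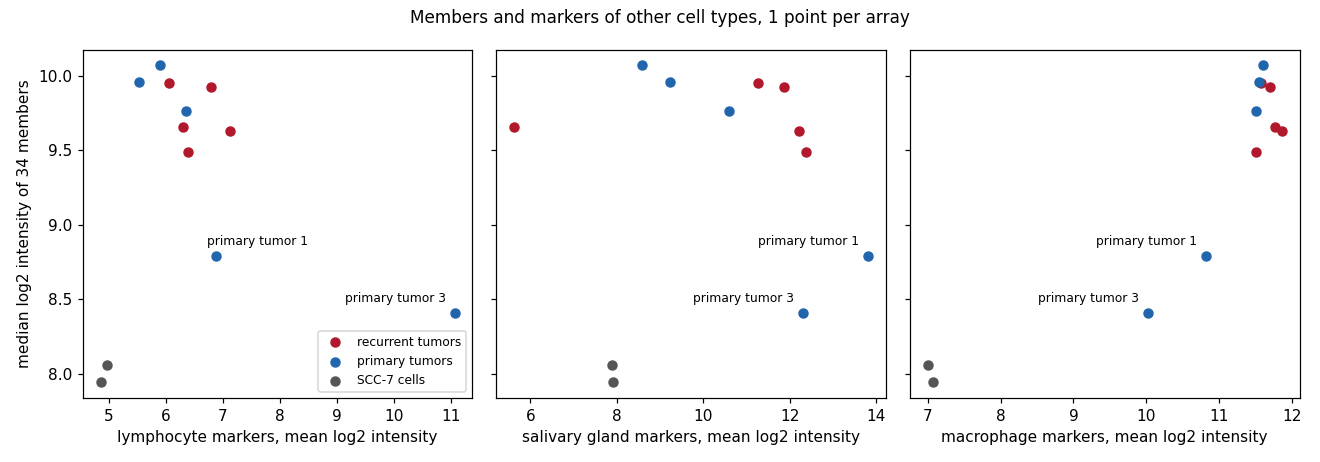
Median log2 intensity of the 34 members (vertical axis) against the mean log2 intensity of lymphocyte, salivary gland and macrophage markers (horizontal axes), 1 point per array. Primary tumors 1 and 3 lie below the other 8 tumors, primary tumor 3 at the highest lymphocyte level and both at the lowest macrophage levels among tumors.

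The count of members called in primary tumors was higher without either of these 2 arrays. Without primary tumor 3, 26 of 34 members were called higher than in SCC-7 cells, and without primary tumor 1, 18 were. Of all 18454 kept probes, 1420 and 1274 were called higher in these 2 fits, against 1229 with all arrays. Without both, left out after their low values had been seen, 28 members were called and their median log2 fold change was 1.73. The count over all kept probes in that fit is not given here. E2f1, Ccnd1, Mcm7, Cdt1, Pcna and Cenpf were the 6 members not called even then. In recurrent tumors the count was 17 without recurrence 1, 12 without recurrence 5 and 14 to 18 without each of the others.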

How the data were processed

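RNA of 5 recurrent tumors, 5 primary tumors and 2 SCC-7 samples was measured on Illumina mouse WG-6 v2 arrays. Raw probe intensity values (bead means) and a detection p-value for each were deposited by the authors, as was a second table of normalized intensity values whose method is not given in the sources used here. The deposited detection p-value is small on both sides of the background and was not used. Background was estimated by normexp (limma 3.58.1, R 4.3.3) on 943 negative controls with an offset of 16, leaving out 11 bright control entries, followed by quantile normalization of 12 arrays and log2. A probe counted as detected where a one-sided p against the negative controls was under 0.01, and kept if detected on at least 2 of 12 arrays. Of 45135 probes, 34773 had 1 symbol, 18 several and 10344 none, and 34769 symbols matched the current gene table; probes with several were given no gene.

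The paired comparison used limma with a fixed block for the animal, since both tumors come from 1 animal by the labels; deviations within a pair correlated at -0.37, 0.03, 0.34, 0.36 and 0.17 in pairs 1 to 5, and 0 recurrences correlated best with their own primary tumor. Each tumor group was compared with SCC-7 cells in a fit of 3 groups. Benjamini-Hochberg adjustment ran over all 18454 kept probes. Fits were tested on simulated data with independent noise and no pair effect. Recovery there meant an adjusted p under 0.05 with the right sign, without the 2-fold cutoff. Calls against SCC-7 cells also needed that cutoff, so their recovery can only be equal or lower. Between recurrent and primary tumors 11.9% of 2-fold and 82.1% of 4-fold changes were recovered. Against SCC-7 cells, 28.4% of 2-fold and 77.6% of 4-fold changes were recovered in recurrent tumors. In primary tumors these were 17.9% and 67.2%. An exact sign-flip test over 5 pairs cannot go below a two-sided p of 0.0625 and was not used. A bound for a probe not detected in SCC-7 cells sets the tumors' mean against the lowest detected level per array.

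Members and gene lists were chosen with earlier results of these data known. Named are all members; per list of other pathway genes, comparison and direction, up to 4 called genes with the largest log2 fold change; every CDK inhibitor; Rbl1 and Gas6 are the only called genes of their lists. Of cell type lists only counts, ranges and undetected markers are given; list means over the tumors were added after values were seen. Promoters came from RefSeq's GRCm38.p6 table. Alternatives were other background, scaling, filter, variance, block, probe and cutoff choices, the authors' normalized values, and each array or pair left out. Slides are unnamed and were not modelled. The number of arrays limits the precision. Figures were drawn with matplotlib 3.10.9.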

Additional observations from a re-analysis of the deposited data

Results flagged for a closer look

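In 86 groups of 5 tumors (34 members, their median and 8 marker lists, in recurrent and in primary tumors), 6 held a tumor whose gap to its nearest neighbor was large for the range of the group, where chance alone gives about 1 in 20 groups. Ccnd1 was at 12.27 in primary tumor 3, against 14.15 in the next lowest primary tumor. The mean of the lymphocyte markers was 11.06 in primary tumor 3, against 6.88 in the next highest. The mean of the squamous markers was 8.78 in primary tumor 1, against 6.47 in the next highest. The salivary gland markers averaged 5.62 in recurrence 1, against 11.26 in the next lowest recurrence. The endothelial markers averaged 6.93 in recurrence 3, against 7.16 in the next lowest, and the adipocyte markers 6.64 in recurrence 2, against 5.03 in the next highest. The causes were not tested.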

How the results depend on the processing

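With 5 tumors per group and 2 SCC-7 arrays, single arrays decided several counts. Leaving out 1 array or pair at a time gave 0 to 3 probes called between recurrent and primary tumors, 28 to 34 members above 0 there and a members' median of 0.11 to 0.56. Against SCC-7 cells it gave 4 to 18 members higher in recurrent and 1 to 26 in primary tumors, with 560 to 1200 and 530 to 1420 probes higher and 210 to 985 and 252 to 1161 lower; the lowest of each came from leaving out an SCC-7 array. Without pairs 1 and 3, 8 probes were called and 7 members were above 0, and without primary tumors 1 and 3, 28 members were higher.

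In recurrent and primary tumors, no background correction gave 795 and 746 probes higher and 405 and 500 lower; median scaling gave 311 and 367 lower, against 932 and 1058 in quantile normalization with 1265 and 1229 higher; the authors' normalized values gave 419 and 517 lower. Of the 11379 probes detected on all 12 arrays, 476 and 399 were higher and 538 and 599 lower. No filter left 11 members called in recurrent tumors. Without a fold cutoff 1787 and 1841 probes were lower. A 4-fold cutoff gave 685 and 738 probes higher, 115 and 143 lower and 3 and 1 members higher. The members' median in recurrent tumors was 1.82 under median scaling and 1.37 with the mean of all kept probes of a gene.

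The fit with no replicate block called 0 probes and kept 33 members above 0 with a median of 0.37, and the animal as a random replicate block gave 21 members in recurrent and 9 in primary tumors, so the block changed no call of a member count.

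Changes of sign occurred in uncalled values only, and between recurrent and primary tumors gene values were recomputed for 13 members. Between recurrent and primary tumors, Mcm7 was at 0.0054 under median scaling, at 0.23 as the mean of its probes, and ran from -0.15 to 0.0942 with 1 pair left out (0.0614 and 0.0738 without pairs 4 and 5); Ccnd1 was at -0.0374 without pair 3. Without pairs 1 and 3, where the count of all members above 0 fell to 7 of 34, the signs that changed among these 13 were those of 7 genes. Cdk1 was at -0.21, Ccnd1 at -0.19, E2f1 at -0.25, Mybl2 at -0.0207, Tyms at -0.0237, Plk1 at -0.0208 and Kif11 at -0.0821. Against SCC-7 cells, with 1 array left out, E2f1 ran from -0.0419 to 0.17 in recurrent tumors and from -0.48 to 0.0437 in primary tumors, where it was at 0.24 without primary tumors 1 and 3. The fitted values of Cenpf and Pcna, which were not detected in SCC-7 cells, ran from -0.10 to 0.62 for Cenpf in recurrent tumors, from -0.21 to 0.52 for Cenpf and from -0.0029 to 0.27 for Pcna in primary tumors. The causes were not tested.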
